A study of Mus musculus with 9 samples.

Results

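The 40 genes described here encode the enzymes that make serine, carry one-carbon units on folate and build purine, pyrimidine and deoxynucleotides in mouse cells. They were chosen by pathway, from a hand-written list of symbols, by a rule that uses no measured value. The list was drawn up with earlier results of these data known. All 40 were matched by Ensembl identifier among the 47643 genes counted, and all 40 passed the filter of at least 100 counts summed over the 9 libraries, which left 14105 genes for the test. Serine made from a glycolytic intermediate donates a carbon to tetrahydrofolate, and the loaded folates then feed purine rings, thymidylate and the methionine cycle, with parallel sets of enzymes in the cytosol and in mitochondria. The purine ring is assembled on phosphoribosyl pyrophosphate (PRPP), the activated ribose, while the pyrimidine ring is made first and then joined to it. Dividing tumor cells, those of pancreatic ductal adenocarcinoma (PDAC) included, draw on these pathways for RNA and DNA synthesis.

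RNA was taken from PDAC cells sorted from the pancreata of mice. KPF mice, the controls, carried among their alleles Trp53 frt/+, Pdx-Flp and R26 FSF-CreER/Dual, and KPYYF mice carried the same alleles as KPF mice and also Yap flox/flox. Pdx-Flp recombines the frt alleles in the pancreatic lineage. Tamoxifen, given in the diet once tumors could be felt, activates CreER, which turns the reporter from GFP to tdTomato (Tm) and deletes floxed Yap. The study describes the mice of both groups, KPF and KPYYF, as tamoxifen-treated. The 6 KPF libraries held GFP+Yap+ cells and the 3 KPYYF libraries held Tm+Yap- cells. The study describes the Tm+Yap- cells as taken from relapsed nodules that grew after tamoxifen. Genotype, Yap, reporter colour and outgrowth as a relapse therefore changed together and cannot be told apart. The age and sex of the single mice were not given in the sources used here. Libraries are called by their mouse number, and KPF libraries 4504h and 4504s share one. The question asked of each gene was whether its mRNA differed between cells that had grown without Yap and cells that kept it.

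Each library held 8116539 to 9635514 counts on genes. CPM, the counts of a gene relative to the library's total, were scaled by TMM, and 3 counts, the limit that a count of 0 allows, came to 0.291 to 0.436 CPM depending on the library. Yap1, the deleted gene, lay between 41.8 and 151 CPM in KPF and between 0.712 and 7.12 CPM in KPYYF libraries. Of the marker lists of other cells, 7 of 7 tested immune, 7 of 10 acinar, 4 of 5 endothelial and 5 of 6 islet genes had log2 fold changes below 0. Of the fibroblast genes, 6 of 10 were above 0. Without KPF libraries 4504s and 4601, 4 of 7 immune and 9 of 9 acinar genes were above 0. With KPYYF library 4449 left out as well, 1 of 7 and 0 of 8 were. In all 9 libraries, the summed level was 390 to 7215 CPM for immune and 71.1 to 21455 CPM for acinar genes in KPF, against 322 to 674 and 82.3 to 6622 CPM in KPYYF libraries. KPF library 4601 held the highest immune sum, KPF library 4504s the highest acinar sum, and KPYYF library 4449 the highest acinar sum of its group. Fibroblast genes summed to 423 to 5590 against 1143 to 3240 CPM, endothelial genes to 10.8 to 66.2 against 10.4 to 14.8 CPM and islet genes to 2.45 to 65.2 against 2.62 to 11.1 CPM in KPF and KPYYF libraries. Amy2a5 had 0 counts in every library, and Cd3g, Cd79a and Iapp had 0 counts in the 3 KPYYF libraries. Ductal epithelial markers were present in every library but summed to 3229 to 11653 CPM in KPF and 568 to 1824 CPM in KPYYF libraries. Of those 8 genes, Krt18, Cdh1 and Muc1 fell at an adjusted p under 0.05 in edgeR's quasi-likelihood test, where 0.794% of all genes tested fell. The cells were sorted by GFP or Tm and not by these markers. The study reports lower expression of epithelial differentiation genes in Tm+Yap- cells. The part of these differences in the values below was not tested.

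Among the 40 members, 36 had a log2 fold change above 0 in KPYYF relative to KPF cells and 4 below 0. At an adjusted p under 0.05 (edgeR's quasi-likelihood test, p values adjusted after Benjamini and Hochberg over every gene tested), 4 members rose (Psat1, Shmt1, Impdh2 and Dut), where 0.305% of all genes tested did, and 1 member fell (Aldh1l1), where 0.794% did. The rule of the study's methods, used there with DESeq2, is more than 2-fold with an unadjusted p under 0.05. Applied here to the edgeR values, it called 9 members higher against 4.20% of all genes and 1 lower against 9.20%. With DESeq2 values it called the same members and Psph, against 4.51% of all genes higher and 12% lower. Psat1, Psph, Shmt1, Shmt2, Prps1, Pfas, Impdh2, Dut and Dctpp1 lay higher in each KPYYF library than in any KPF library, and 3.92% of all genes did so. Aldh1l1 lay lower in each KPYYF library than in any KPF library, as did 5.18% of all genes. The median log2 fold change was 0.64 over the members and -0.07 over all genes tested, of which 46.7% were above 0. Without KPF library 4435, without KPYYF library 4891 or without KPYYF library 4938, 0 members had an adjusted p under 0.05 in edgeR, while 14, 12 and 8 members were higher at an unadjusted p under 0.05, against 5.58, 5.03 and 4.77% of all genes in the same fits. By the rule of the methods, 8, 9 and 8 were then higher, against 4.05, 4.03 and 3.87% of all genes, and 1 was lower, against 8.46, 8.86 and 9.0%. With KPF libraries 4504h and 4504s, which come from 1 mouse number, summed, Shmt1 and Impdh2 had an adjusted p under 0.05, and Psat1, Dut and Aldh1l1 no longer did (0.0636, 0.0650 and 0.0562). Without KPF libraries 4504s and 4601, Shmt1 and Aldh1l1 had an adjusted p under 0.05, and without KPYYF library 4449 as well, Psat1 alone did. In sorted cells measured in bulk, fewer cells that express a gene and less of its RNA per cell cannot be told apart.

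**Figure D1:**
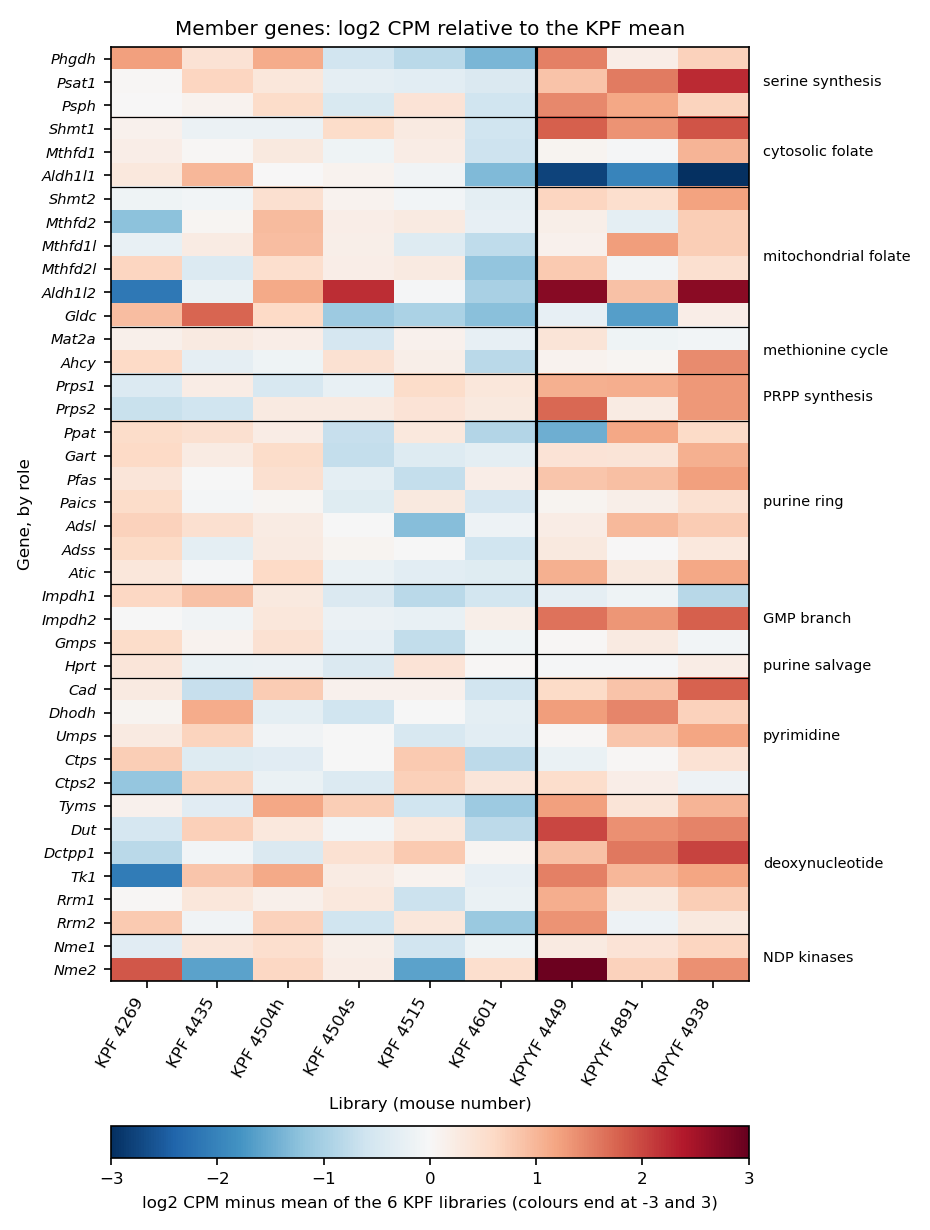
Log2 CPM of each of the 40 members (rows, grouped by role) in each of the 9 libraries (columns), as a difference from the mean of the 6 KPF libraries, with red above and blue below it. KPYYF libraries 4449 and 4938 held the highest value of 12 and 14 members, KPF library 4601 held the lowest value of 16, and Aldh1l1 stood out as the darkest blue row in the 3 KPYYF libraries.

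**Figure D2:**
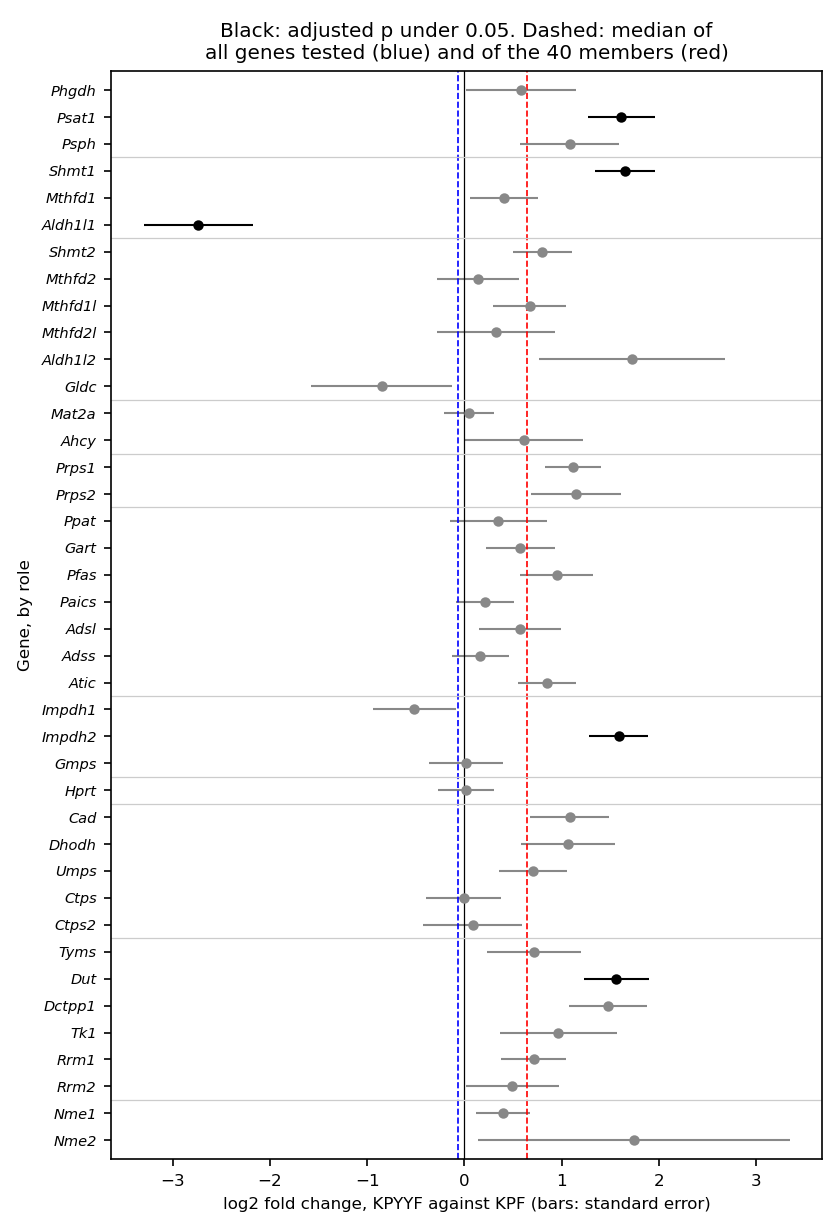
Log2 fold change of each member, KPYYF against KPF, with its standard error as a bar and the 5 members with an adjusted p under 0.05 in black. Most points lie to the right of 0, the red dashed line marks the members' median of 0.64 and the blue dashed line the median of all genes, -0.07.

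The sequences before RefSeq start sites of 4 of the 5 called members are shown because they hold a match to a motif searched for. In the RefSeq promoter table (GRCm38.p6), 37 of the 40 members were found among 27025 genes, and the 250 bases before each start were searched on both strands. CACGTG, the E-box that Myc proteins bind, was in 5 of 37 members (Paics, Atic, Impdh2, Tyms and Nme1) and in 6.86% of all genes. CCAAT was in 18 of 37 members and in 37.5% of all genes. TGATGNAA, an ATF4-type element, was in Prps1 alone and in 3.91% of all genes. GGAATG, which TEAD factors, the DNA-binding partners of Yap, recognise, was in Mthfd1 and Gldc and in 14.4% of all genes, and TTTCGCGC or TTTGGCGC, E2F-type sites, in 0 members and 0.759% of all genes. No motif searched contains another, and a match is a description of the sequence only. Capitals mark the matches, a capital ATTGG being CCAAT on the other strand, and each sequence reads 5′ to 3′ on the gene's strand in mm10 coordinates. The Impdh2 stretch lies in a first exon of the GENCODE annotation, while the other stretches touch no annotated exon of their gene. All the stretches lie inside the gene bounds of that annotation, which are given below. Those bounds begin far upstream of the stretch for Psat1 (chr19:15947337, minus strand) and Aldh1l1 (chr6:90486427, plus strand). The window of Dut and that of a second RefSeq start of Psat1 (chr19:15924623-15924872) held none of these motifs.
Psat1, chr19:15925060-15925309, minus strand, CCAAT 36 and 6 bases before the start: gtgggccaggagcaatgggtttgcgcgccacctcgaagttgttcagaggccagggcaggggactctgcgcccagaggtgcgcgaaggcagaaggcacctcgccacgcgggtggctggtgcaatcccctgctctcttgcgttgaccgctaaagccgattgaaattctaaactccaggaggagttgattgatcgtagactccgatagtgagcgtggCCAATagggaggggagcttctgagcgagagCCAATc
Shmt1, chr11:60811266-60811466, minus strand, CCAAT 47 bases before the start: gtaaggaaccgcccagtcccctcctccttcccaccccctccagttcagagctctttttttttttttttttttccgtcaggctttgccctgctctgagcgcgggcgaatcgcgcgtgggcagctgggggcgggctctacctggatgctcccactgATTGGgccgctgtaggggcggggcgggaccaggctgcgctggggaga
Aldh1l1, chr6:90550543-90550788, plus strand, CCAAT 103 and 63 bases before the start: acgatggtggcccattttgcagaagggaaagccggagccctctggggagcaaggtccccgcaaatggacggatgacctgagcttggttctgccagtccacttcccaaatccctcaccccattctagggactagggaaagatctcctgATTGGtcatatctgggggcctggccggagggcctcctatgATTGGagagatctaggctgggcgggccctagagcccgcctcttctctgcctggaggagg
Impdh2, chr9:108560314-108560343, plus strand, CACGTG 110 bases before the start: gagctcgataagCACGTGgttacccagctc

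Serine synthesis runs through 3 enzymes, and Psat1, the middle one, rose. Psat1 (ENSMUSG00000024640, chr19:15904678-15947337) encodes the aminotransferase that adds the amino group. Its level in KPF libraries ran from 35.0 to 73.0 CPM with a median of 43.7, and in KPYYF libraries 4449, 4891 and 4938 it was 85.4, 139 and 222 CPM. The groups did not overlap, and KPYYF library 4938 was highest. The mean went from 48.7 ± 14.9 (SD, n = 6) to 149 ± 69.1 CPM (SD, n = 3), a log2 fold change of 1.61 (standard error 0.34, edgeR quasi-likelihood test, adjusted p = 0.0422). With 1 library left out, Psat1 passed only without KPYYF library 4449, and its adjusted p was 0.0572 to 0.193 without any other. Phgdh, the dehydrogenase that takes the first step, ranged from 10.3 to 64.3 CPM in KPF and from 31.3 to 78.0 CPM in KPYYF libraries, so the groups overlapped, and its log2 fold change was 0.58 (adjusted p = 0.677). Psph, the phosphatase of the last step, was at 5.68 to 12.9 CPM in KPF and 14.1 to 24.2 CPM in KPYYF libraries without overlap, and its log2 fold change, 1.08 (standard error 0.51), did not pass the test (edgeR adjusted p = 0.316). Psph shares 452 exon bases with Cct6a on the opposite strand, a gene with 19026 counts in all, and the strand setting of the counting was not given in the sources used here.

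Of the 3 cytosolic folate enzymes, one rose, one fell and one did neither. Shmt1 (ENSMUSG00000020534, chr11:60788104-60811718) encodes the cytosolic serine hydroxymethyltransferase, which moves a carbon from serine to folate. It lay between 21.9 and 48.6 CPM in KPF libraries, with a median of 33.0, and at 115, 85.5 and 123 CPM in KPYYF libraries 4449, 4891 and 4938. No KPYYF library came near the KPF range, and the log2 fold change was 1.65 (standard error 0.31, edgeR adjusted p = 0.0277), a 3.14-fold higher level. Shmt1 no longer passed without KPF library 4435 or without KPYYF library 4891 or 4938 (adjusted p = 0.0681, 0.0553 and 0.103). It shares 184 exon bases near its end with Smcr8 on the opposite strand, a gene with 433 counts in all. Aldh1l1 (ENSMUSG00000030088, chr6:90486427-90600203) encodes formyltetrahydrofolate dehydrogenase, which burns off the folate-bound one-carbon unit as carbon dioxide. It was at 13.6 to 68.7 CPM in KPF libraries, with a median of 35.4, and at 4.75, 8.42 and 3.84 CPM in KPYYF libraries 4449, 4891 and 4938. The lowest KPF library, 4601, still exceeded the highest KPYYF library, and the mean fell from 37.9 ± 17.99 (SD, n = 6) to 5.67 ± 2.43 CPM (SD, n = 3), a log2 fold change of -2.74 (standard error 0.56, edgeR adjusted p = 0.0357). With 1 library left out, Aldh1l1 passed only without KPF library 4601, and its adjusted p was 0.0534 to 0.138 without any other. Mthfd1, the cytosolic enzyme that interconverts the folate forms, ranged from 25.7 to 48.0 CPM in KPF and from 38.2 to 80.4 CPM in KPYYF libraries, with a log2 fold change of 0.41 (edgeR adjusted p = 0.623).

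In the mitochondrial branch and glycine cleavage, 5 of 6 genes had a log2 fold change above 0 and 0 passed the edgeR test. With an unadjusted p under 0.05, 1 was higher, Shmt2, against 6.10% of all genes tested. DESeq2 and limma-voom also called 0 of the 6. Shmt2, the mitochondrial serine hydroxymethyltransferase, was at 32.1 to 54.8 CPM in KPF and at 61.4, 55.9 and 91.4 CPM in KPYYF libraries 4449, 4891 and 4938. The groups touched without overlap, KPF library 4504h being next to KPYYF library 4891, and the log2 fold change was 0.80 (standard error 0.31, edgeR adjusted p = 0.214). Aldh1l2, the mitochondrial counterpart of Aldh1l1, had the largest difference of this branch, 1.72 on the log2 scale, with a standard error of 0.96 (edgeR adjusted p = 0.409). Its KPF values ran from 0.389 CPM in library 4269 to 12.4 CPM in library 4504s, with a median of 2.29, and its KPYYF values were 17.9, 4.81 and 17.4 CPM in libraries 4449, 4891 and 4938. KPYYF library 4891 lay within the KPF range. Near its end, Aldh1l2 shares 1056 exon bases with D10Wsu102e on the opposite strand, a gene with 2588 counts in all, so without a known strand setting reads of the pair may be mixed, in the ratio to Aldh1l1 as well. Mthfd2, Mthfd1l and Mthfd2l, which carry the unit from methylene to formate in mitochondria, had log2 fold changes of 0.14, 0.67 and 0.32 and overlapping groups. Gldc, the decarboxylase of glycine cleavage, spanned 8.31 to 68.7 CPM within KPF alone and 6.23 to 23.0 CPM in KPYYF libraries, with a log2 fold change of -0.85 (edgeR adjusted p = 0.623).

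Both methionine cycle genes had overlapping groups. Mat2a, which makes S-adenosylmethionine, stayed between 313 and 533 CPM in KPF and between 404 and 574 CPM in KPYYF libraries, and its log2 fold change was 0.05 with a standard error of 0.26. Ahcy, which clears S-adenosylhomocysteine, was at 4.52 to 12.4 CPM in KPF libraries with a median of 8.32, and at 8.79, 8.42 and 22.1 CPM in KPYYF libraries 4449, 4891 and 4938. Only KPYYF library 4938 lay above the KPF range, and the log2 fold change of 0.61 had a standard error of 0.61 (edgeR adjusted p = 0.687).

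PRPP synthesis is carried by Prps1 and Prps2, both on the X chromosome. Both were higher by the rule of the methods, against 4.20% of all genes tested, without an adjusted p under 0.05 in edgeR or limma-voom. DESeq2 called Prps1 (adjusted p = 0.0144) and not Prps2 (0.149). Prps1 was at 49.5 to 101 CPM in KPF libraries with a median of 69.3, and at 145, 147 and 171 CPM in KPYYF libraries 4449, 4891 and 4938. The groups did not overlap, and the log2 fold change was 1.11 (standard error 0.29, edgeR adjusted p = 0.0914). Prps2 was at 8.27 to 17.6 CPM in KPF libraries with a median of 16.1, and at 43.8, 15.6 and 32.8 CPM in KPYYF libraries 4449, 4891 and 4938. KPYYF library 4891 lay within the KPF range, and the log2 fold change was 1.15 (standard error 0.46, edgeR adjusted p = 0.232). Xist, the transcript that silences one X chromosome in female cells, had 71 to 159 counts in KPF libraries 4269, 4515 and 4601 and 3452 to 16108 counts in the other 6 libraries, the 3 KPYYF libraries among them. Within the 6 libraries with high Xist counts, Prps1 kept a log2 fold change of 1.32 (edgeR unadjusted p = 0.00197) and Prps2 one of 1.18 that no longer passed the rule (edgeR unadjusted p = 0.0596). In that fit 0 members had an adjusted p under 0.05, against 0.0459% of all genes higher and 0.237% lower. At an unadjusted p under 0.05, 6 members were higher, against 5.09% of all genes. There DESeq2 and limma-voom were not run.

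All 7 genes grouped here as purine ring synthesis, of which Adss acts after ring closure, in the AMP branch, had log2 fold changes above 0, from 0.16 (Adss) to 0.95 (Pfas), with a median of 0.57, and 0 had an adjusted p under 0.05 in edgeR, DESeq2 or limma-voom. At an unadjusted p under 0.05, 2 of the 7 (Pfas and Atic) were higher, against 6.10% of all genes tested. Pfas, which adds a nitrogen to the growing ring, was at 11.6 to 27.0 CPM in KPF libraries with a median of 20.8, and at 34.8, 36.2 and 45.6 CPM in KPYYF libraries 4449, 4891 and 4938. The groups did not overlap, and its standard error was 0.38 (edgeR adjusted p = 0.228). Atic, which closes the ring, was at 123 to 240 CPM in KPF and 196 to 359 CPM in KPYYF libraries, with overlap, and a log2 fold change of 0.85 (edgeR adjusted p = 0.173). Gart and Adsl, at 0.58 and 0.57 on the log2 scale, and Paics and Adss, at 0.21 and 0.16, had overlapping groups. Ppat, the enzyme of the committed first step, was at 25.9 to 70.4 CPM in KPF libraries and at 17.1, 108 and 70.8 CPM in KPYYF libraries 4449, 4891 and 4938, so that KPYYF held both its lowest and its highest library. Ppat and Paics start head to head on chromosome 5 and share 272 exon bases on opposite strands. Without KPYYF library 4891, 6 of the 7 had log2 fold changes above 0.

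In the GMP branch, Impdh2 rose and Impdh1 did not change by the test. IMP dehydrogenase, the rate-limiting enzyme of guanine nucleotide synthesis, is encoded by Impdh1 and Impdh2. Impdh2 (ENSMUSG00000062867, chr9:108560286-108565584) was at 20.1 to 29.7 CPM in KPF libraries with a median of 22.6, and at 73.7, 58.9 and 81.6 CPM in KPYYF libraries 4449, 4891 and 4938. The KPF libraries lay close together and no KPYYF library came near them. Impdh2 rose from 23.8 ± 3.73 (SD, n = 6) to 71.4 ± 11.5 CPM (SD, n = 3), a log2 fold change of 1.59 (standard error 0.30, edgeR adjusted p = 0.0292). Impdh2 no longer passed without KPF library 4435, 4504s or 4515 or without KPYYF library 4891 or 4938 (adjusted p = 0.0552 to 0.106). The annotation holds 1 named Impdh2 pseudogene, with which reads could be shared. Impdh1 spanned 28.4 to 91.3 CPM in KPF and 27.9 to 45.8 CPM in KPYYF libraries, with a log2 fold change of -0.52 (edgeR adjusted p = 0.606). Gmps, which turns XMP into GMP, had a log2 fold change of 0.02 (standard error 0.38). Hprt, which recycles free purine bases and is X-linked, was at 55.8 to 100 CPM in KPF libraries with a median of 71.8, and at 73.0, 73.1 and 88.3 CPM in KPYYF libraries 4449, 4891 and 4938. Every KPYYF value of Hprt lay within the KPF range, and its log2 fold change was 0.02 with a standard error of 0.29.

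**Figure D3:**
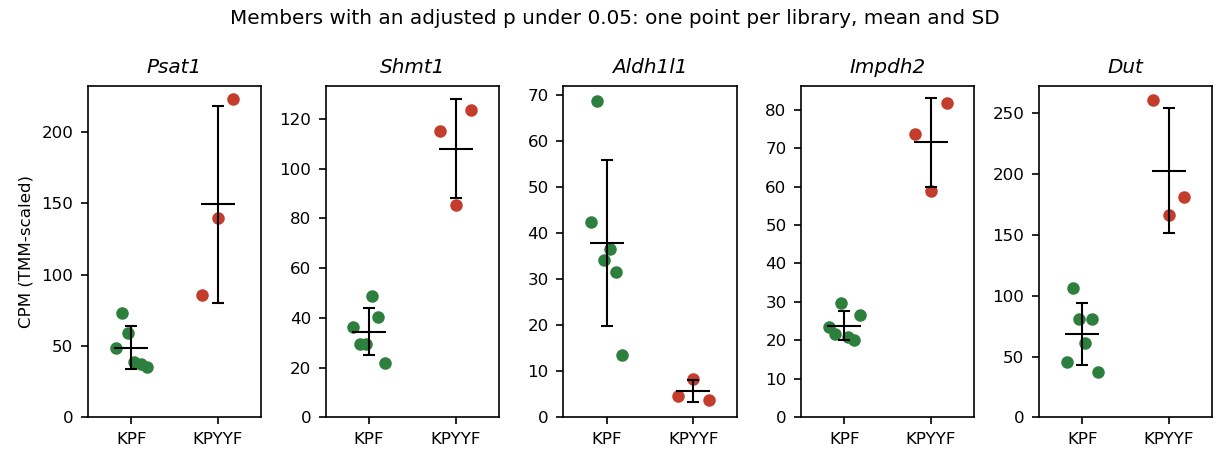
CPM of the 5 members with an adjusted p under 0.05, 1 point per library, KPF in green and KPYYF in red, with the group mean and SD in black. In each panel the groups are apart, with Psat1, Shmt1, Impdh2 and Dut higher and Aldh1l1 lower in the 3 KPYYF libraries.

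Pyrimidine rings are made by Cad, Dhodh and Umps in turn. Of the 5 genes of this group, 0 had an adjusted p under 0.05 in edgeR, DESeq2 or limma-voom. By the rule of the methods 2, Cad and Dhodh, were higher, against 4.20% of all genes tested. Cad, the multifunctional enzyme of the first steps, was at 14.3 to 39.9 CPM in KPF libraries with a median of 25.5, and at 35.1, 42.5 and 80.2 CPM in KPYYF libraries 4449, 4891 and 4938. Only KPYYF library 4449 overlapped KPF, and the log2 fold change was 1.08 (standard error 0.41, edgeR adjusted p = 0.210). Dhodh, the mitochondrial dehydrogenase of the pathway, was at 7.75 to 26.0 CPM in KPF libraries with a median of 10.7, and at 28.6, 32.9 and 19.4 CPM in KPYYF libraries 4449, 4891 and 4938. The highest KPF library, 4435, lay above KPYYF library 4938, and the log2 fold change was 1.06 (standard error 0.48, edgeR adjusted p = 0.298). Umps, which finishes UMP, had a log2 fold change of 0.71 (standard error 0.35, edgeR adjusted p = 0.348). The CTP synthases Ctps and Ctps2 were at -0.01 and 0.09 on the log2 scale, with standard errors of 0.38 and 0.51.

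The 6 deoxynucleotide genes all had log2 fold changes above 0, from 0.49 (Rrm2) to 1.56 (Dut), with a median of 0.84. Dut (ENSMUSG00000027203, chr2:125247190-125258608) encodes the dUTPase that keeps uracil out of DNA and supplies dUMP to thymidylate synthase. It was at 37.3 to 106 CPM in KPF libraries with a median of 70.8, and at 261, 166 and 181 CPM in KPYYF libraries 4449, 4891 and 4938. The groups did not overlap, and Dut rose from 68.6 ± 25.5 (SD, n = 6) to 203 ± 51.0 CPM (SD, n = 3), a log2 fold change of 1.56 (standard error 0.33, edgeR adjusted p = 0.0422). With 1 library left out, Dut passed only without KPF library 4601, and its adjusted p was 0.0573 to 0.105 without any other. Dctpp1, another pyrophosphatase that cleans up the nucleotide pool, was at 13.7 to 42.4 CPM in KPF libraries with a median of 24.2, and at 44.6, 72.7 and 100 CPM in KPYYF libraries 4449, 4891 and 4938. KPF library 4515 came next to KPYYF library 4449 without overlap, and the log2 fold change was 1.48 (standard error 0.40, edgeR adjusted p = 0.0963, DESeq2 adjusted p = 0.0201). Tyms (thymidylate synthase), Tk1 (thymidine kinase) and the ribonucleotide reductase subunits Rrm1 and Rrm2 had log2 fold changes of 0.72, 0.97, 0.71 and 0.49, with overlapping groups and adjusted p values of 0.312 to 0.675 in edgeR. Without KPYYF library 4449, 5 of the 6 were above 0.

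Proliferation genes lay mostly above 0 as well. Over a list of 20, among them Mki67, cyclins and Mcm helicase subunits, 19 had a log2 fold change above 0, with a median of 1.00. The list summed to 658 to 1372 CPM in KPF and to 1638 to 2241 CPM in KPYYF libraries without overlap. Of the 20, 0 had an adjusted p under 0.05 in edgeR's quasi-likelihood test, and 11 were higher at an unadjusted p under 0.05, against 6.10% of all genes tested. DESeq2 called 6 of them higher, against 1.91% of all genes, and limma-voom called 0. Ccna2, a cyclin of S phase, had a log2 fold change of 1.90 (edgeR adjusted p = 0.0514), and Mcm2 was the one below 0, at -0.71. The part of proliferation in the levels of the deoxynucleotide or other members was not tested.

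**Figure D4:**
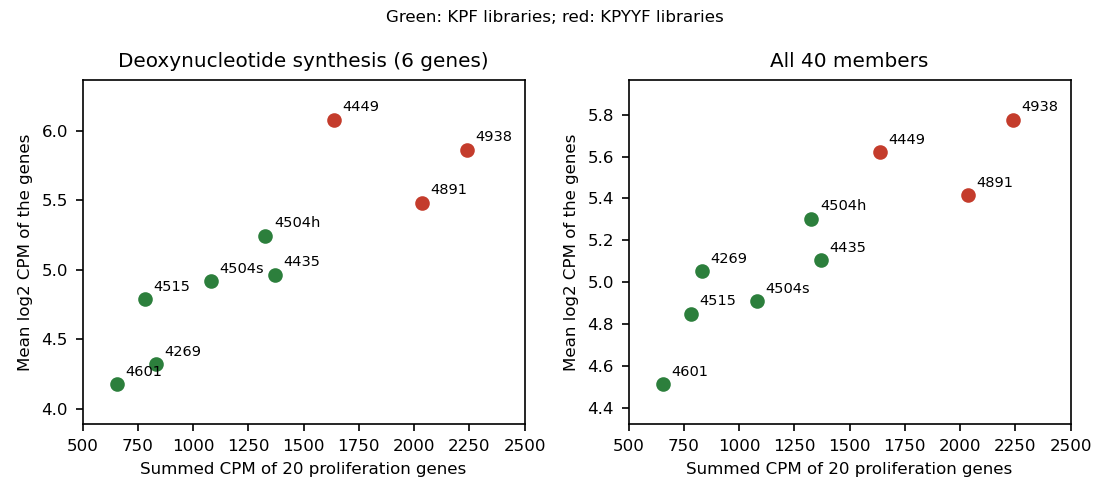
Mean log2 CPM of the 6 deoxynucleotide genes (left) and of all 40 members (right) against the summed CPM of 20 proliferation genes, 1 point per library, KPF in green and KPYYF in red. The 3 KPYYF libraries lie above and to the right of the 6 KPF libraries in both panels, and KPF library 4601 is lowest on both axes.

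The nucleoside diphosphate kinases Nme1 and Nme2, which hand phosphate from ATP to the other nucleotides, did not pass the test. Nme1 ranged from 148 to 309 CPM in KPF and from 263 to 342 CPM in KPYYF libraries, and its log2 fold change was 0.40 (standard error 0.28, edgeR adjusted p = 0.532). Nme2 had 0 to 23 counts in KPF libraries, or 0 to 2.24 CPM with a median of 0.649, and 42, 8 and 14 counts, or 4.99, 0.875 and 1.53 CPM, in KPYYF libraries 4449, 4891 and 4938. The groups overlapped at counts this low, and its log2 fold change of 1.74 had a standard error of 1.60 (edgeR adjusted p = 0.658). Nme2 shares 48.9% of its exon bases with a readthrough gene on the same strand, Gm20390, listed at 0 counts, so reads of this stretch may have been left uncounted as ambiguous.

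Ratios between enzymes that catalyse the same or a related step cancel the scaling of the libraries, except through the prior count of 2 added before the log. This offset pulls ratios of low counts towards 0. With log2 of CPM plus 0.5 instead, Aldh1l2 to Aldh1l1 differed between the groups by 4.51 rather than 4.73. In all, 7 pairs were compared. With 6 and 3 libraries the two-sided exact permutation test has 84 splits and cannot give a p below 0.0119. These splits count KPF libraries 4504h and 4504s, of 1 mouse number, as separate. A ratio of 0 on the log2 scale does not mean equal amounts, since libraries of 3′ ends may capture genes unequally. The log2 ratio of Aldh1l2 to Aldh1l1 ran from -6.13 in KPF library 4269 to -1.54 in KPF library 4504s, and was 1.87, -0.78 and 2.12 in KPYYF libraries 4449, 4891 and 4938. The ratio was higher in KPYYF libraries by 4.73 on the log2 scale (exact permutation p = 0.0119, adjusted over 7 pairs 0.0417). Impdh2 to Impdh1 lay between -2.06 and -0.34 in KPF and between 0.36 and 1.54 in KPYYF libraries, a difference of 1.99 (exact permutation p = 0.0119, adjusted 0.0417). With 1 library left out, both ratios passed only without KPF library 4504h, and their adjusted exact permutation p was 0.0625 to 0.125 without any other, where 5 and 3 or 6 and 2 libraries allow no p below 0.0179 or 0.0357. The ratio of Shmt2 to Shmt1 differed towards the cytosolic form, at 0.24 ± 0.43 (SD, n = 6) in KPF and -0.65 ± 0.24 (SD, n = 3) in KPYYF libraries, a difference of -0.89 that did not pass (exact permutation p = 0.0238, adjusted 0.0556) but did without KPF library 4504h (-0.76, adjusted exact permutation p = 0.0417). Mthfd1l to Mthfd1, Mthfd2 to Mthfd2l, Prps1 to Prps2 and Ctps to Ctps2 differed by -0.17 to 0.35, with adjusted exact permutation p values of 0.812 to 0.905. With 4504h and 4504s summed, 56 splits allow no p below 0.0179. Aldh1l2 to Aldh1l1, Impdh2 to Impdh1 and Shmt2 to Shmt1 then each had an adjusted exact permutation p of 0.0417. The members of these pairs had already been compared one by one, so the ratios are not independent of those values.

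**Figure D5:**
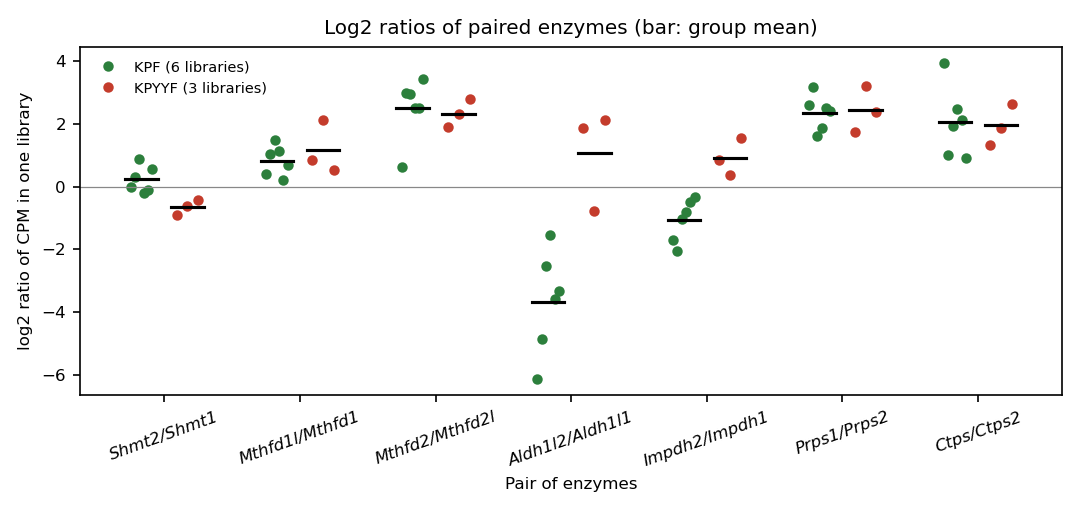
Log2 ratio of CPM within each library for 7 pairs of related enzymes, KPF in green, KPYYF in red, with the group mean as a bar. The groups are apart for Aldh1l2/Aldh1l1, Impdh2/Impdh1 and Shmt2/Shmt1 and overlap for the other 4 pairs.

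Neighbouring genes of the same pathways, from lists written by hand, were split around 0. Among 22 other folate, serine and methionine genes tested, 12 lay above 0 and 10 below (median 0.16). In edgeR 1 passed the test as lower, where 0.794% of all genes tested did. That was Ggh, the hydrolase that trims the polyglutamate tail of folates, which fell from 31.4 ± 7.22 (SD, n = 6) to 6.62 ± 1.51 CPM (SD, n = 3), a log2 fold change of -2.24 (standard error 0.44, edgeR adjusted p = 0.0351) without overlap. DESeq2 called Ggh and Cbs lower in this list, against 6.58% of all genes. From this list 0 genes passed with limma-voom, without KPF libraries 4504s and 4601, or without these and KPYYF library 4449. Slc19a1, the reduced folate carrier, had a log2 fold change of 1.01 (edgeR adjusted p = 0.272) and groups that did not overlap, 10.9 to 24.5 against 26.0 to 52.7 CPM. Cbs, which commits homocysteine to cysteine synthesis, was at 0.307 to 21.5 CPM in KPF libraries and at 0 to 0.119 CPM in KPYYF libraries, under the limit that a count of 0 allows (edgeR adjusted p = 0.120). Slc46a1 had the largest difference above 0 of this list, 1.16 (edgeR adjusted p = 0.799).

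Of 19 other purine genes, 8 lay above 0 and 11 below (median -0.19), and 0 had an adjusted p under 0.05 in edgeR, DESeq2 or limma-voom. At an unadjusted p under 0.05, edgeR had 2 of them, both higher, against 6.10% of all genes tested. Adenosine kinase (Adk) was among these 2, with a log2 fold change of 0.91. Xdh, at 1.12, and Ampd3, at -2.54, were the extremes of this list. Of 20 other pyrimidine and deoxynucleotide genes, 13 lay above 0 and 7 below (median 0.29). In edgeR 0 of them had an adjusted p under 0.05 and 3 an unadjusted one, DESeq2 called Dpyd, and limma-voom called 0. Dpyd and Dpys, which both degrade pyrimidines, had opposite signs. Dpyd was at 0.0973 to 7.97 CPM in KPF and 0 to 0.119 CPM in KPYYF libraries, and Dpys was at 17.8 CPM in KPYYF library 4938 and at 0.437 CPM or less in the other 8 libraries. Nme4, a mitochondrial kinase, was at 33.1 and 31.7 CPM in KPYYF libraries 4449 and 4891 but at 3.29 CPM in 4938, under the KPF range of 6.49 to 11.6 CPM.

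Among 17 genes that regulate these pathways, 0 had an adjusted p under 0.05 in edgeR or limma-voom, 4 had an unadjusted one in edgeR, and DESeq2 called Myc, E2f1 and Mycn. Myc, whose protein drives many nucleotide synthesis genes, was at 8.61 to 25.5 CPM in KPF libraries and at 87.7, 36.1 and 52.2 CPM in KPYYF libraries 4449, 4891 and 4938, without overlap (log2 fold change 1.84, standard error 0.44, edgeR adjusted p = 0.0631). Its partner Max had a log2 fold change of 0.71 and E2f1, a driver of S-phase genes, of 1.76 (edgeR adjusted p = 0.193 and 0.159). Mycn was at 1.64 to 3.65 CPM in KPF and at 0.110 to 0.328 CPM in KPYYF libraries, the latter at or under the limit that a count of 0 allows.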

How the data were processed

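RNA of sorted PDAC cells (6 KPF and 3 KPYYF libraries) was prepared with the Lexogen QuantSeq 3′ Fwd kit. The authors deposited raw counts per Ensembl gene for each library, without normalization, and the submitters' processing notes name STAR, HTSeq and mm10. The annotation release and strand setting are not given in the sources used here, and the methods section describes BeadChip hybridization, which the whole-number counts do not match. Genes took 37.3 to 42.0% of the reads, and the other reads (not unique, on no feature or ambiguous) were left out.

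Identifiers were matched to GENCODE M21 symbols. Genes with at least 100 counts over 9 libraries were normalized by TMM and compared with edgeR 4.0.16 (quasi-likelihood test, robust, no covariates, two-sided) in R 4.3.3, with Benjamini-Hochberg adjustment over 14105 genes. Standard errors are log2 fold changes divided by the root of F. Log2 CPM used a prior count of 2. The members and lists were chosen with earlier results of these data known. Values by library are given for members past either call rule and for the largest absolute log2 fold change of each role, and in the other lists for genes past a rule or at the extremes. Krt18, Cdh1, Muc1, Amy2a5, Cd3g, Cd79a, Iapp and Xist were named after their values were seen. Only mouse numbers mark separate samples, so p-values measure the spread between these libraries, and limits cover counting error only. The alternatives were RLE and upper quartile normalization, DESeq2 1.42.0, limma-voom (limma 3.58.1), other filters, 4504h and 4504s summed, libraries with over 1000 Xist counts, each library left out, and, for ratios, log2 of CPM plus 0.5, and, chosen after seeing the data, the marker-rich libraries left out. The tests were tested on simulated counts. Figures were drawn with matplotlib 3.10.9. One allele of the mice and the values of one listed gene are not reported here.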

Additional observations from a re-analysis of the deposited data

Results flagged for a closer look

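Of 59 values tested over the 6 KPF libraries (the members' log2 CPM, the ratios and the summed lists), 2 had 1 library far from the others, where chance flags about 1 in 20. The log2 ratio of Mthfd2 to Mthfd2l was 0.638 in KPF library 4269 and 2.49 in the nearest other library, a gap of 0.662 of the whole range. The summed endothelial markers of KPF library 4269 came to 10.8 CPM, against 34.2 CPM in the nearest other library, a gap of 0.635 of the range.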

How the results depend on the processing

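The direction of Psat1, Shmt1, Aldh1l1, Impdh2 and Dut held in all 19 alternatives, and their adjusted p was under 0.05 in 8, 14, 7, 11 and 6 of them. Against 4 members higher at an adjusted p under 0.05, 2 were found with KPF libraries 4504h and 4504s summed, where 0.177% of all genes were. With only the libraries of high Xist counts, 0 were found, against 0.0459%. At an unadjusted p under 0.05, 6 were higher there (edgeR's quasi-likelihood test), against 5.09%. Without KPF libraries 4504s and 4601, 1 was found, against 0.082%, and without these and KPYYF library 4449, 1 against 0.46%. With each library left out in turn, 0 to 3 were found, against 0.0433 to 0.542%. DESeq2 called 6 higher, against 1.91% of all genes, and 1 lower, against 6.58%. Against 1 member lower, 0 were found with limma-voom, with 4504h and 4504s summed, with only high Xist counts and without those 3 libraries (1 lower at an unadjusted p under 0.05 in each), and 0 to 1 with each library left out. Counts by the rule of the methods ran from 6 to 10 higher against 9, where 3.77 to 5.25% of all genes were higher. In every alternative 1 member was lower by that rule, where 6.78 to 12% of all genes were. The members' median log2 fold change ran from 0.47 to 0.78. Against 36 of 40 members above 0, 32 of 39 tested were without KPF libraries 4504s and 4601. Without these and KPYYF library 4449, 28 of 39 were. With each library left out in turn, 32 to 36 of the 39 or 40 tested were above 0. No paired analysis was possible because the groups came from different mice, and no mouse number occurs in both.

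Of the ratios, Aldh1l2 to Aldh1l1 differed by 4.05 and Impdh2 to Impdh1 by 2.22 with only high Xist counts. They differed by 5.35 and 2.24 without KPF libraries 4504s and 4601, and by 4.95 and 2.28 without KPYYF library 4449 as well. None of these passed an adjusted exact permutation p of 0.05. With high Xist counts and without the 3 libraries, 20 and 15 splits allow no unadjusted p below 0.05 and 0.0667. Without the 2 KPF libraries, both ratios reached the smallest exact permutation p of 35 splits, 0.0286, adjusted to 0.0667. The groups of both ratios did not overlap in any of these settings. With each library left out, the differences were 4.20 to 5.65 and 1.67 to 2.26. Shmt2 to Shmt1 passed at -0.86 with 4504h and 4504s summed and at -0.756 without KPF library 4504h, and was -0.996 to -0.756 with each library left out. Some differences changed sign. Over the 19 alternatives, the log2 fold change of Phgdh ran from -0.19 to 0.86, against 0.58 in edgeR with TMM. That of Rrm2 ran from -0.34 to 0.77, against 0.49, and that of Ppat from -0.22 to 0.80, against 0.35. Mthfd1, Mthfd2, Mthfd2l, Mat2a, Gmps, Ctps and Ctps2 also changed sign in some alternatives. Hprt was at -0.038 with 4504h and 4504s summed, -0.055 and -0.0026 without the marker-rich libraries (without and with KPYYF library 4449 also left out), and -0.077 to 0.14 with each library left out. Ctps to Ctps2 was 0.15 with high Xist counts, 0.0078 without the 3 libraries and -0.45 to 0.27 with each left out, Mthfd1l to Mthfd1 -0.046 with high Xist counts and -0.13 to 0.67, Mthfd2 to Mthfd2l 0.056 and 0.27 without the 2 and the 3 libraries and -0.55 to 0.037, and Prps1 to Prps2 -0.045 with 4504h and 4504s summed, -0.030 without the 2 libraries and -0.31 to 0.44. The cause of these shifts was not tested.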
